A study of Mus musculus with 2 samples.

Results

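Chaperones of the cytosol and the mitochondrion were examined in liver from male mice that carried or lacked Iah1, the gene of a homologue of a yeast isoamyl acetate esterase. The list of 51 genes covered the heat shock protein (HSP) families HSP70, HSP90 and HSP40, small HSPs, the cytosolic chaperonin TRiC, their cochaperones and heat shock factors. A gene was measured where the array annotation gave a probe set that symbol and no other, and its value was the mean log2 signal of such probe sets. This held for 47 of the 51 genes, among 22180 genes measured in all, and the expression of Hsp90ab1, Dnaja1, Hsf1 and Stub1 was not analysed here. The Iah1-WT group was wild type for Iah1, and the Iah1-KO group lacked the gene in the whole body (systemic knockout). The strain and the design of the allele were not in the sources used here. Both groups ate laboratory chow until 6 weeks of age and a high-fat diet for 12 weeks, lived 1 animal to a cage, and went without food for 4 hours before their livers were taken. Liver RNA of 3 mice was combined for 1 whole-transcript Affymetrix array per genotype, so there is 1 value per gene and genotype. The mouse-to-mouse spread is not recorded, no test of genotype could be made, and "higher" and "lower" describe these 2 arrays alone.

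Proteins of the HSP70 family bind hydrophobic stretches of unfolded proteins in cycles driven by ATP. HSP40 proteins, named for their J domain, deliver substrates and start ATP hydrolysis, while exchange factors such as HSP110 and BAG proteins let ADP and substrate leave. HSP90 takes over clients such as steroid receptors and kinases with the help of cochaperones, TRiC folds actin and tubulin within its ring, and a separate HSP70, HSP60 and HSP10 set works in mitochondria. Some of these genes are constitutive housekeeping genes of the hepatocyte, whereas others are induced by heat or unfolded protein through heat shock factor 1 (HSF1). HSF1 binds heat shock elements, which are inverted repeats of the motif nGAAn. In mouse liver the inducible genes are also known to follow the daily cycle of body temperature and feeding.

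The targeted transcript was at 8.59 in WT and 3.90 in KO on the log2 scale. All 8 hepatocyte markers of the tissue lay above the intensity filter. They ranged from Serpina1b, near it at 5.31 in WT and 5.14 in KO, to Alb at 13.3 in both arrays. Over 41345 probe sets the WT and KO values had a Pearson's r of 0.983, as a description across probe sets that are not replicates. Genes were compared where the higher array value reached 4.68, the median of these higher values, and 11090 genes did. Their median KO minus WT difference was -0.02 with a standard deviation (SD) of 0.26. The spread depended on signal, with an SD of 0.36 in the dimmest of 4 equal signal classes of these genes and 0.16 in the brightest, whose mean signal lay at 7.63 or above. Probe sets of the same gene disagreed with an SD of 0.27 per probe set (604 genes), which is the one measurement error that 2 arrays hold and leaves out mice, labelling and hybridisation.

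Of the 47 chaperone genes measured, 45 were compared, and Cryab and Ptges3 stayed below the filter in both arrays. Differences were small. Dnajb4 was the 1 member higher in KO by 1.5-fold or more (0.58 on the log2 scale), beside 1.47% of all genes compared. None was lower by that much, beside 2.45% of all genes. These shares of all genes are not matched for signal. In the dimmest signal class 4.36% of genes were higher and 5.48% lower by 1.5-fold, against 0.07% and 0.65% in the brightest. Of the 45 members, 32 passed a filter at the 75th percentile of the higher values. At 1.2-fold or more, 7 members were higher (15.6%, beside 9.30% of all genes) and 3 were lower (6.67%, beside 14.4% of all genes). The 7 were Dnajb4, Hspa1a, Hspa8, Dnaja3, Hsph1, Stip1 and Bag2, and the 3 were Hspa2, Sugt1 and Dnajc7. The median difference over the members compared was 0.04, and 30 of 45 lay above 0, against 44.3% of all genes. Dnaja3 owed its place among the 7 to its dimmer probe sets, described with the mitochondrial genes. Hspa1a passed the filter through its KO value alone and Hspa2 through its WT value alone. Reckoned from the filter level, their folds were at least 1.14 and 1.12, so neither is shown to reach 1.2-fold. The shares of 15.6% and 6.67% thus lean in part on Hspa1a, Dnaja3 and Hspa2. Shares of all genes were not recounted without such cases, so the contrast with all genes at 1.2-fold is not firm. Over all 47 measured genes the median was 0.03.

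**Figure D1:**
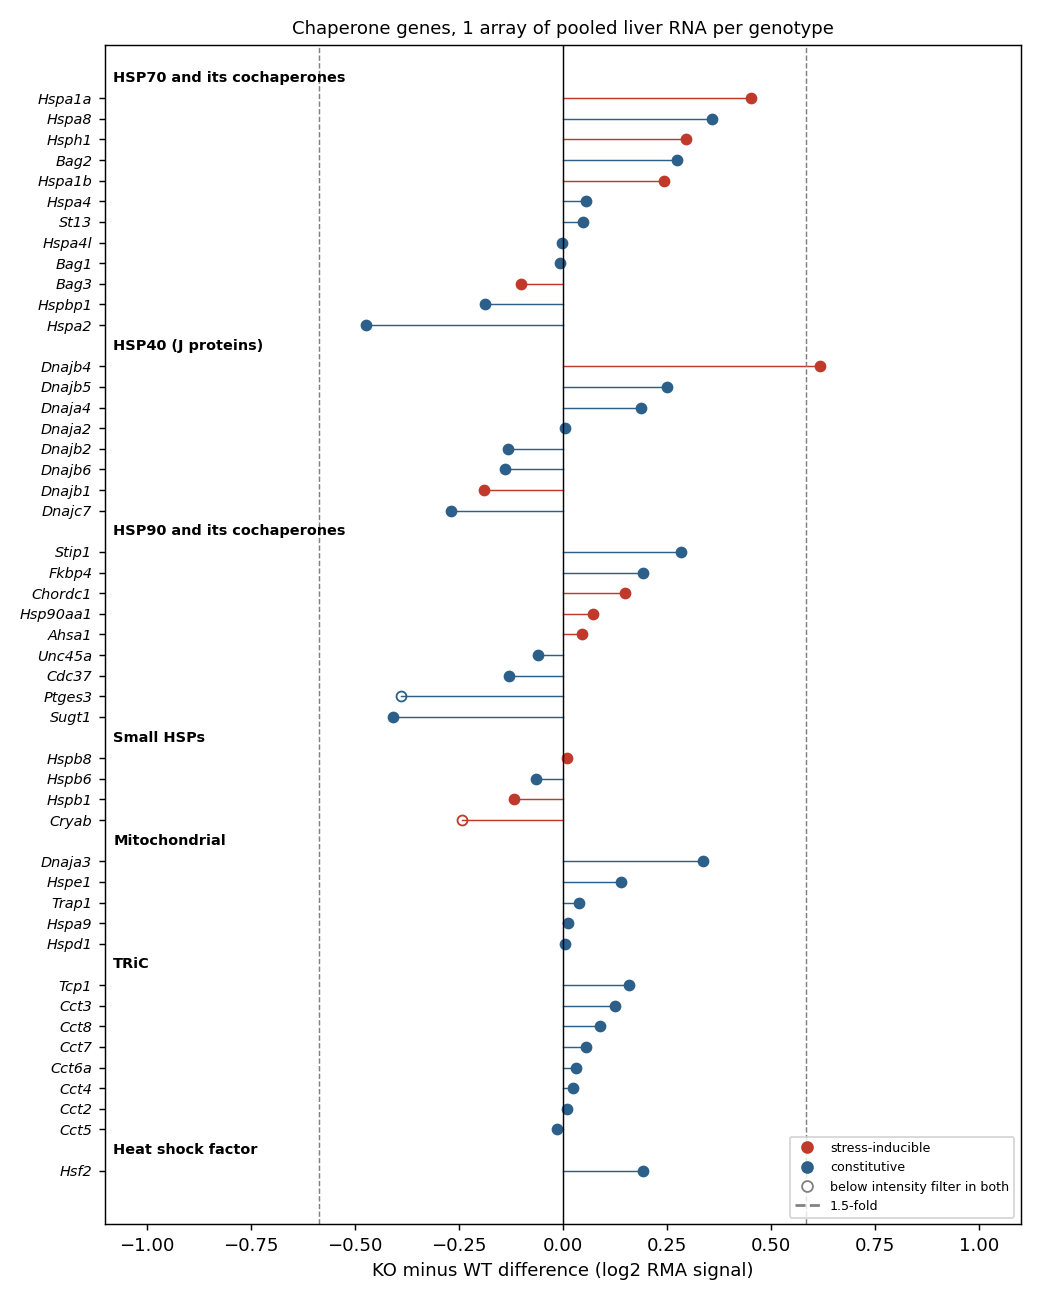
KO minus WT difference of each measured chaperone gene on the log2 scale, by protein family, with 1 array of pooled RNA per genotype and therefore no error bars. Red marks stress-inducible and blue constitutive genes, open points lie below the intensity filter in both arrays, and dashed lines mark 1.5-fold. Dnajb4 at 0.62 is the 1 point beyond a dashed line, and TRiC points lie between -0.01 and 0.16.

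Members were divided into 13 that heat shock is known to induce strongly (Hspa1a, Hspa1b, Hsph1, Hsp90aa1, Hspb1, Hspb8, Cryab, Dnaja1, Dnajb1, Dnajb4, Bag3, Chordc1 and Ahsa1) and 38 others, called constitutive here. The median difference was 0.07 over 11 stress-inducible genes compared (8 above 0, range -0.19 to 0.62) and 0.03 over 34 constitutive genes (22 above 0, range -0.47 to 0.36). Both medians lay above that of all genes, and with 1 array per genotype the gap between them has no replicate error. A wider inducible list of 21 genes, which adds Hspa8, Hsp90ab1, Hspd1, Hspe1, Hspa4l, Dnaja4, Stip1 and Fkbp4, gave 0.14 over 18 genes (14 above 0), with 0.01 over the remaining 27 (16 above 0). With the first division and the brightest probe set of each gene, the medians were 0.11 and 0.01 (0.0079). The gap between the classes thus depended on the division and on the choice of probe set. Both lists were chosen with earlier results of these data known, so the gap under either list is not independent of them. Whichever list is used, inducible genes went both ways, with Hsph1 at 0.30 and Hspa1b at 0.24 against Dnajb1 at -0.19 and Bag3 at -0.10.

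**Figure D2:**
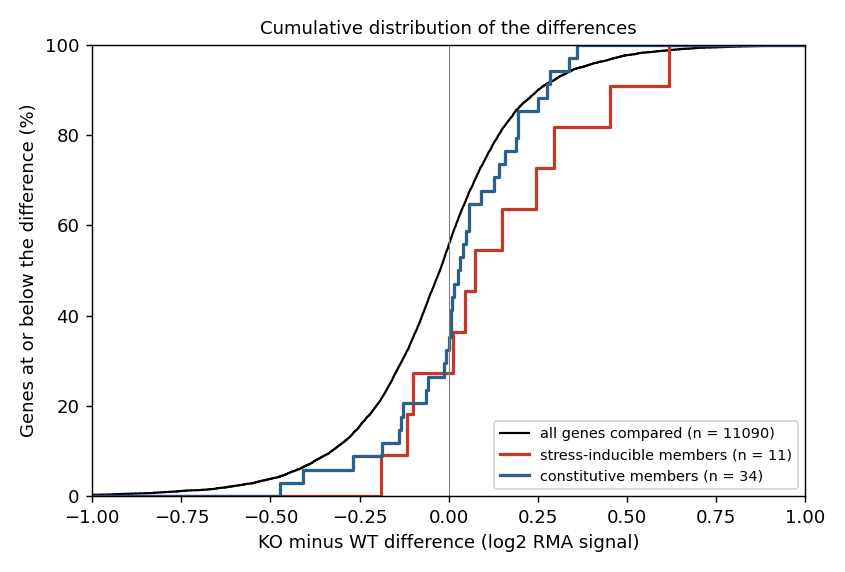
Cumulative share of genes (%) against the KO minus WT difference (log2) for all 11090 genes compared, 11 stress-inducible members and 34 constitutive members. Both coloured curves cross 50% to the right of the black curve (medians 0.07 and 0.03 against -0.02), and the red curve reaches 100% at Dnajb4 (0.62).

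Promoter sequences were searched for exact matches to heat shock element units near the start. Imperfect matches and more distant sites were not searched, so a gene without a match is not shown to lack an element. RefSeq windows of GRCm38.p6, from 250 bases before to 50 after a transcript start, were found for 43 of the 51 genes, and Hspa8, Hspa9, Hsp90aa1, Hsp90ab1, Cryab, Hsf1, Cct4 and St13 had no entry. The paired units GAANNTTC and TTCNNGAA each read the same on both strands. GAANNTTC was in 31.0% of the 58 member windows and in 7.86% of all 32851 windows, and TTCNNGAA in 19.0% and 8.52%. GAANNTTC was found in 8 of 11 stress-inducible and 8 of 32 constitutive genes, TTCNNGAA in 3 of 11 and 6 of 32. These counts describe the windows only, and their genes are not the ones compared for expression, since Dnaja1 and Stub1 have a window and Hsp90aa1 has none. Arrays of 3 alternating units (GAA, TTC and GAA, or TTC, GAA and TTC, each apart by NN, on either strand, so that both paired units are contained in them) were in 5 member genes, the stress-inducible Hsph1 and Chordc1 (2 of 11) and the constitutive Dnajb6, Hspe1 and Hspd1 (3 of 32). They were in 7 of 58 member windows (12.1%) and in 0.603% of all windows. Some genes have several windows and those of Hspe1 and Hspd1 overlap, so windows are not independent.

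The windows below are those of the near-identical pair Hspa1a and Hspa1b and of 4 genes with a 3-unit array, written 5′ to 3′ along the gene's strand, with paired units and longer arrays in capitals.
Hspa1a promoter, chr17:34972107-34972406, minus strand: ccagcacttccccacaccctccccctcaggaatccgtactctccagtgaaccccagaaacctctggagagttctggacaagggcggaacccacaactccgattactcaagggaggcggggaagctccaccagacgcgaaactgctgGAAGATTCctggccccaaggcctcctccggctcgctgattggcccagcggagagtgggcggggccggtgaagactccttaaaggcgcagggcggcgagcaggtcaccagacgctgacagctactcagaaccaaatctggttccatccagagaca
Hspa1b promoter, chr17:34959189-34959488, minus strand: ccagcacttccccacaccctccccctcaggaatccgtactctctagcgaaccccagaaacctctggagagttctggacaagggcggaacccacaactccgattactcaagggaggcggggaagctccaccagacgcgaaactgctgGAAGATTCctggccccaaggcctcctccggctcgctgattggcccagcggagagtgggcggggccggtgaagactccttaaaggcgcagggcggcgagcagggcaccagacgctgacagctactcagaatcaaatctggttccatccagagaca
Hsph1 promoter, chr5:149636287-149636586, minus strand: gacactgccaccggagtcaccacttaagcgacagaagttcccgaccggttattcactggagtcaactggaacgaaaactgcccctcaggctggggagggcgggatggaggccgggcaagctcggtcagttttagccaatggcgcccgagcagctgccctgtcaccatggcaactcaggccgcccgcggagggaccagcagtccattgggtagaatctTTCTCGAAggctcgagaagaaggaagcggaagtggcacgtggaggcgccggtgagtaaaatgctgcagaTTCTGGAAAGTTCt
Chordc1 promoter, chr9:18292017-18292316, plus strand: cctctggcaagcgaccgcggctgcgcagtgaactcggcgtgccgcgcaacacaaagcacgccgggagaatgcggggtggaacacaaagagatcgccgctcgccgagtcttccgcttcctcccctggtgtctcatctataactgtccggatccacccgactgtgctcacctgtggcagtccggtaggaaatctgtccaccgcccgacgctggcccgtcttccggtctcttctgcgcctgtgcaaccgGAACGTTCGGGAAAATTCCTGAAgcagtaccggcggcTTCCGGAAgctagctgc
Dnajb6 promoter, chr5:29735648-29735947, plus strand: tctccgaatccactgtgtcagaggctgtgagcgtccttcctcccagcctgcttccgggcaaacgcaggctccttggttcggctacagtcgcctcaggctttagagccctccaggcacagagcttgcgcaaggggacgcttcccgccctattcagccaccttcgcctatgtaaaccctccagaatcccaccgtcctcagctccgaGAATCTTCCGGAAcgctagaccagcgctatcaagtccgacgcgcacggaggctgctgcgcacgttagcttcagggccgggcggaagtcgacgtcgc
Hspe1 promoter, chr1:55087898-55088197, plus strand: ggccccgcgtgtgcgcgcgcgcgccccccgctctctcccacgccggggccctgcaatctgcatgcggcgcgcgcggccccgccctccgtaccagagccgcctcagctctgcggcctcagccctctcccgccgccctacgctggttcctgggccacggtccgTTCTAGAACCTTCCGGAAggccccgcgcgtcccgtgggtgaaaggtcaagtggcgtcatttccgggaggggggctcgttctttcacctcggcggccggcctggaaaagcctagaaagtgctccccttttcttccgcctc

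Counting from the transcript start, the Hspa1a and Hspa1b windows hold the unit GAAGATTC at -104 to -97, and 296 of their 300 positions are the same base. Hsph1 has the array TTCTGGAAAGTTC at 37 to 49 after the start. Chordc1 carries the longest run, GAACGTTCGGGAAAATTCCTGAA, across its start from -4 to 19. Dnajb6 has GAATCTTCCGGAA at -46 to -34, and Hspe1 has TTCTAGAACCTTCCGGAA at -89 to -72. Hspe1 and Hspd1 are divergent neighbours on chromosome 1, and their windows share 285 bases, so both hold the same array. Genes with a 3-unit array did not share a direction. Hsph1 was at 0.30, Chordc1 at 0.15, Hspe1 at 0.14, Hspd1 at 0.01 and Dnajb6 at -0.14.

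The HSP70 family held several of the larger differences. Hspa8, the constitutive cytosolic HSP70 (HSC70) that also uncoats clathrin vesicles, was at 8.89 in WT and 9.25 in KO, 1.28-fold higher in the KO array. Its difference of 0.36 exceeded that of 99.2% of the genes in the brightest signal class. Hspa8 was the member with the most probe sets of 1 symbol, and all 4 lay above 0. They were 11.1 in WT and 11.3 in KO (0.18), 8.81 and 9.23 (0.42), 8.81 and 9.24 (0.44), and 6.80 and 7.20 (0.40). The brightest of the 4 gave the smallest difference, and the 2 middle ones gave nearly the same values in both arrays, so they may not be independent measurements. A further probe set, which names Hspa8 together with another gene, was left out. Of the 9 such probe sets of members, 7 reached the filter, with differences from -0.16 to 0.12.

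The inducible HSP70 genes Hspa1a and Hspa1b were dimmer. Hspa1b was at 5.97 in WT and 6.22 in KO, and this 0.24 exceeded 88.6% of the genes in its signal class. Hspa1a was at 4.42 in WT and 4.87 in KO, and its WT value lay below the filter. Its difference was 0.45 between the array values, or a fold of at least 1.14 if the filter takes the place of the WT value. The pair encode nearly the same protein and lie close together on chromosome 17, so probe sets can share signal and neither gene is certain on its own. Each is also named by 1 probe set with several symbols, which was left out. Among such probe sets of members that reached the filter the highest difference was 0.12, below the values of both genes. Whether those naming this pair are among them is not given here. Hspa2, an HSP70 known for its role in spermatogenesis, went the other way, from 4.83 in WT to 4.36 in KO (-0.47), with its KO value below the filter (at least 1.12-fold against it).

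Exchange factors and cochaperones of HSP70 did not share a direction. Hsph1, the heat-inducible HSP110 that acts as an exchange factor, was at 7.71 in WT and 8.01 in KO (0.30), above 98.5% of the genes in the brightest class. Its relatives Hspa4 (9.05 and 9.11) and Hspa4l (7.22 in both arrays) differed by 0.06 or less. Bag2, which inhibits the ubiquitin ligase CHIP, was at 5.35 and 5.63 (0.28). Bag3, an inducible exchange factor that steers clients to autophagy, was at 7.42 and 7.32 (-0.10), and Bag1, an exchange factor of the same family, at 7.29 and 7.28. Hspbp1, another exchange factor, was at 6.92 and 6.74 (-0.19), and St13 (Hip), which stabilises the ADP state, at 9.26 and 9.30 (0.05). Over the 12 genes of this family compared, the median was 0.05 with 7 above 0.

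HSP40 genes went both ways, with 4 of 8 above 0 and a median of -0.06. Dnajb4, a heat-inducible relative of Dnajb1, was at 5.09 in WT and 5.71 in KO, 1.53-fold higher in the KO array. This was the largest difference of the chaperone genes compared, and it rests on 1 probe set in the dimmest class, where 4.36% of genes were higher by 1.5-fold or more. Dnajb1, the main inducible J protein partner of HSP70, was at 6.49 and 6.30 (-0.19). The inducible pair Dnajb4 and Dnajb1 therefore differed in sign. Dnajb5 was at 4.89 and 5.14 (0.25), and Dnaja4, a J protein of the DNAJA class, at 4.80 and 4.99 (0.19). Dnaja2, a major constitutive partner of HSC70, was at 9.08 in both arrays. Dnajb2 was at 5.59 and 5.46 (-0.13), and Dnajb6, which suppresses aggregation of polyglutamine proteins, at 5.68 and 5.54 (-0.14). Dnajc7, a J protein with TPR domains that links HSP70 and HSP90, was at 7.58 and 7.31 (-0.27).

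Among HSP90 genes, Hsp90aa1, the inducible HSP90, was at 7.03 in WT and 7.10 in KO (0.07). Its cochaperones spanned both directions, with 5 of 8 genes of this family above 0 and a median of 0.06. Stip1 (Hop), which holds HSP70 and HSP90 together for client transfer, was at 8.14 and 8.42 (0.28, above 98.3% of the brightest class). Fkbp4 (FKBP52), an immunophilin of steroid receptor complexes, was at 8.72 and 8.91 (0.19), and Chordc1, a zinc-binding HSP90 partner, at 7.63 and 7.78 (0.15). Ahsa1, the activator of the HSP90 ATPase, was at 8.03 and 8.08 (0.05). Sugt1, a partner of HSP90 in kinetochore and innate immune complexes, was at 6.99 and 6.58, 1.33-fold lower in KO, with 3.50% of its signal class more negative. Cdc37, which loads kinases onto HSP90, was at 7.12 and 6.99 (-0.13), and Unc45a, a myosin chaperone, at 6.33 and 6.28 (-0.06). Ptges3 (p23), which stabilises the closed HSP90 dimer, was at 4.63 and 4.25, both below the filter.

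**Figure D3:**
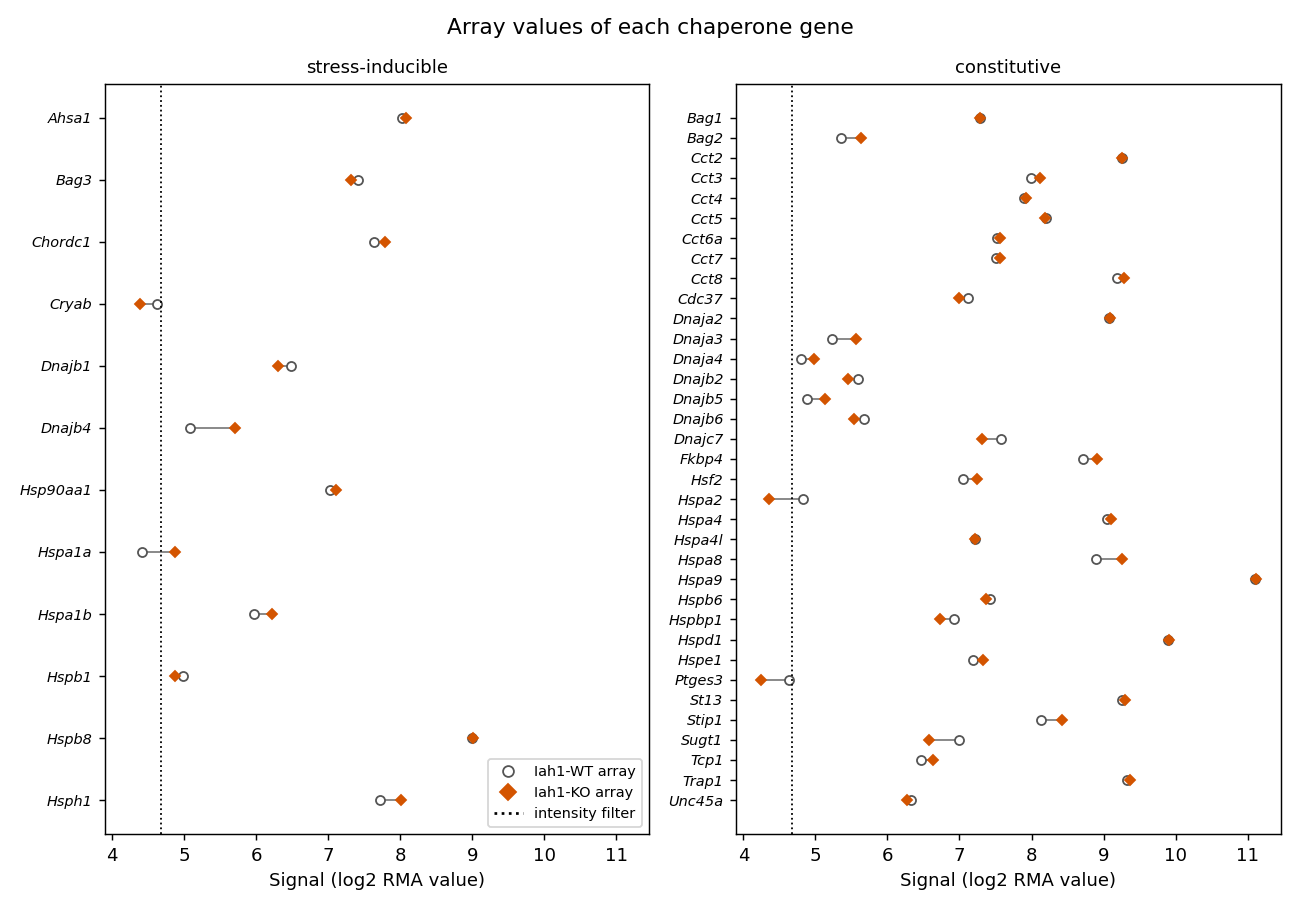
Log2 RMA signal of each measured chaperone gene in the Iah1-WT array (open circles) and the Iah1-KO array (diamonds), stress-inducible genes on the left and constitutive genes on the right; the dotted line is the intensity filter of 4.68. Brightness depends on the probes, so only the 2 symbols on a line can be compared. Hspa8, Hsph1, Stip1 and Dnajb4 have the diamond to the right, and Sugt1, Hspa2 and Dnajc7 have it to the left.

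Among the small HSPs, which hold unfolding proteins without ATP, Hspb8 and Hspb6 differed little. Hspb8, a partner of Bag3, was at 9.00 in WT and 9.01 in KO, and Hspb6 at 7.43 and 7.37 (-0.06). Hspb1 (HSP25 in the mouse) was at 4.98 and 4.87 (-0.12), but its 2 probe sets disagreed. The brighter was at 6.04 and 6.28 (0.24), and the dimmer at 3.93 and 3.45 (-0.48), below the filter in both arrays. Cryab (alpha-B crystallin) was at 4.63 and 4.39 as a gene, with probe sets at -0.08 and -0.40.

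All 5 mitochondrial chaperone genes lay above 0, against 44.3% of all genes, with a median of 0.04. However, 3 of the 5 lay within 0.1 of 0, and Hspa9 fell to -0.0032 after quantile normalization again. Hspa9 (mortalin), which pulls precursors into the matrix, was at 11.1 in both arrays, with a difference of 0.01. Hspd1 (HSP60) was at 9.90 in both arrays, its lid Hspe1 (HSP10) at 7.18 and 7.32 (0.14, above 84.1% of its signal class), and Trap1, the mitochondrial HSP90, at 9.32 and 9.36 (0.04). Dnaja3, the J partner of Hspa9, was at 5.23 and 5.57, a difference of 0.34 that its 3 probe sets did not share. The brightest was at 8.61 and 8.58 (-0.03), the next at 4.25 and 4.94 (0.69 between the array values, or at least 0.26 with the filter in place of its WT value, which lay below it), and the dimmest at 2.83 and 3.19 (0.35), below the filter in both arrays. With the brightest probe set alone, Dnaja3 lay below 0.

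TRiC is built from 8 different subunits, and all 8 genes were compared. They lay between -0.01 for Cct5 and 0.16 for Tcp1, with a median of 0.04, 7 above 0 and 6 within 0.1 of 0, where 39.2% of all genes lay. That share is not matched for signal. All 8 genes were in the third and brightest signal classes, where differences had an SD of 0.20 and 0.16. Cct3 was at 7.99 in WT and 8.11 in KO (0.13), Cct8 at 9.19 and 9.28 (0.09), Cct7 at 7.50 and 7.56 (0.06), Cct4 at 7.90 and 7.92 (0.03), Cct2 at 9.25 and 9.26 (0.01) and Cct5 at 8.20 and 8.18. Each subunit's difference was smaller than the probe set SD of 0.27. That SD pools probe sets of all signal levels and exceeds the SD of both classes, so this does not set TRiC apart. Tcp1 has a bright probe set at 9.31 and 9.25 (-0.05) and a dim one at 3.63 and 4.00 (0.37), below the filter in both arrays. Cct6a had probe sets at -0.01 and 0.07. Hsf2, a heat shock factor with roles in development, was at 7.05 and 7.25 (0.19).

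**Figure D4:**
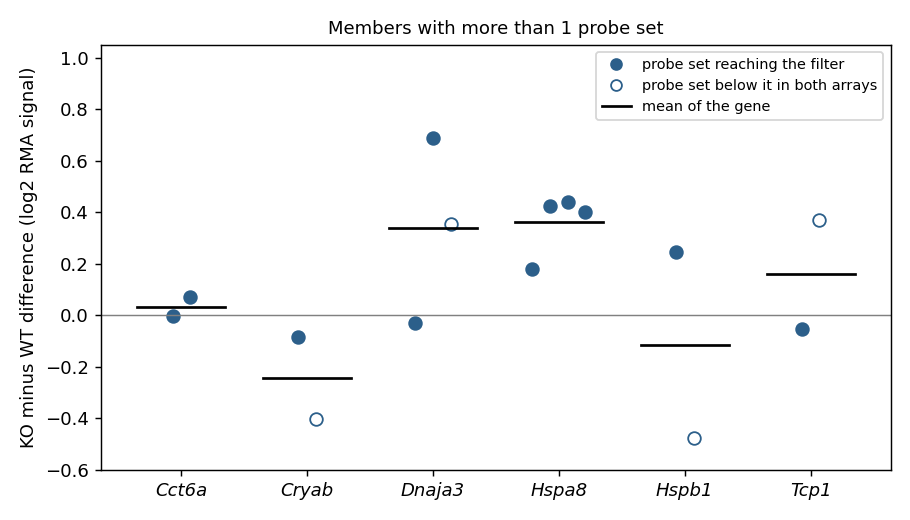
KO minus WT difference (log2) of each probe set for the 6 members with more than 1; filled points reach the intensity filter in at least 1 array, open points do not, and bars are the gene means. The 4 Hspa8 points lie between 0.18 and 0.44, while points of Dnaja3, Hspb1 and Tcp1 lie on both sides of 0.

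Other genes of the chaperone network were read from lists that do not overlap with the members. Of 6 prefoldin genes, whose complex passes nascent actin and tubulin to TRiC, 5 were compared, with a median of 0.06 and Pfdn5 at 0.32. Of 10 genes of mitochondrial import, proteolysis and related functions, 9 were compared, with a median of 0.00 (0.0040), the iron-sulfur J protein gene Hscb at 0.40 and the protease subunit gene Clpx at -0.41. Of 8 other J protein genes, 7 were compared, with a median of 0.09, Dnajc9 at 0.45 and Dnajc8, a J protein of the spliceosome, at 6.09 in WT and 5.44 in KO, 1.57-fold lower. Of 21 other cochaperones, 19 were compared, with a median of 0.01 and a range from -0.30 for Ttc4 to 0.26 for Ppid. Over these 4 lists together, 24 of 40 genes lay above 0 (60.0%, against 44.3% of all genes). At 1.2-fold or more, 3 were higher (7.50%, beside 9.30% of all genes) and 5 lower (12.5%, beside 14.4%), shares near the background, and 1 of the 5 was lower by 1.5-fold.

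Genes outside the chaperone families that HSF1 is known to induce were read as a further list. Of 9 such genes 7 were compared, with 2 above 0 (28.6%, against 44.3% of all genes) and a median of -0.08. They ranged from Dedd2 at -0.19, whose 2 probe sets were averaged, to Serpinh1, a collagen chaperone gene, at 0.18. None reached 1.2-fold, beside 9.30% of all genes higher and 14.4% lower by that much. With 7 genes these shares do not set the list apart from all genes. Cirbp, a cold-inducible RNA-binding protein gene whose daily rhythm in liver is known to run opposite to that of inducible heat shock genes, was at 5.70 in WT and 5.13 in KO, 1.48-fold lower. Of all genes compared, 2.72% had a more negative difference. Its relative Rbm3 was not analysed here, and a link between the Cirbp value and those of the heat shock genes was not tested.

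Marker genes of other liver cells differed between the same 2 pools. Of 13 sinusoidal endothelial markers, 12 lay below 0, with a median of -0.45 and a summed signal of 11.7 in WT and 11.2 in KO (log2 of the sum). All 14 macrophage markers lay below 0, with a median of -0.47 and sums of 11.4 and 10.9. Fewer cells and less RNA per cell cannot be told apart in bulk tissue. Stellate and smooth muscle markers had a median of -0.16 over 10 of 12 (4 above 0), with sums of 11.0 and 10.9. They went both ways, with 3 higher and 3 lower by 1.2-fold or more (30% each, beside 9.30% and 14.4% of all genes). Myh11 was at -0.75. Des, counted among the 3 higher, was at 3.75 in WT, below the filter, and 4.68 in KO. Its KO value only just reached the filter, so that no fold is given. Of 5 cholangiocyte markers, 4 were below the filter in both arrays, and the sums were 6.64 and 6.48. The 8 hepatocyte markers had a median of -0.01 and a sum of 15.2 in both arrays. The part of these differences in the chaperone values was not tested.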

How the data were processed

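Liver RNA of 2 pools (1 Iah1-WT, 1 Iah1-KO, 3 mice each) was measured on 1 array per pool, from 100 ng of RNA. The deposited table holds log2 values per probe set, made by the authors with RMA in Affymetrix Expression Console 1.3.0, per the submitters' processing notes. RMA corrects background, equalises probe distributions and summarises probe sets, so it compresses differences of dim genes and removes any general shift. The log2 scale was read from the values. The genome build was not given in the sources used here.

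Of 41345 probe sets, the platform annotation gave 23521 exactly 1 symbol, 1814 several and 16010 none. Identifiers of all 47 measured members matched RefSeq (GRCm38.p6), with no symbol changed. Gene values were means over probe sets with 1 symbol, and genes were compared where the higher array reached 4.68. With 1 array per genotype there is no p-value, and the number of arrays limits the precision. Promoters came from RefSeq, GRCm38.p6. The alternatives were no filter or the 75th percentile, loess (span 0.4, statsmodels 0.14.6), quantile normalization again, median subtraction, the brightest probe set, list means, Hspa1a with Hspa1b as 1 gene, a wider inducible list and thresholds of 1.2-fold and 2-fold. The counting steps were tested on simulated data. Members and lists were chosen with earlier results of these data known. Every member could be named, and of other lists up to 4 genes with the largest difference. Calculations used Python 3.11.15 with pandas 2.3.3.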

Additional observations from a re-analysis of the deposited data

How the results depend on the processing

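The median differences stayed above 0 under every alternative run, from 0.02 to 0.06 over the members compared, 0.06 to 0.14 over stress-inducible and 0.01 (0.0079) to 0.05 over constitutive genes, with the wider list giving 0.14. The count of members higher in KO was 1 at 1.5-fold, 7 at 1.2-fold and 0 at 2-fold, and 0 with the filter at the 75th percentile, which removes Dnajb4. The count lower was 0 at 1.5-fold and 3 at 1.2-fold. With the brightest probe set, Dnaja3 went to -0.03, Tcp1 to -0.05, Hspb1 to 0.24 and Hspa8 to 0.18. Averaging only probe sets that reach the filter, an alternative chosen after seeing the data, put Hspb1 at 0.24, Tcp1 at -0.05 and Dnaja3 at 0.33. Differences near 0 changed sign for 3 of 45 genes under loess and under median subtraction, and for 4 of 45 after quantile normalization again. No paired analysis was possible because each genotype has 1 array. Leaving out a replicate was not possible for the same reason. Detection calls and per-probe intensities were not used here, so dim members such as Hspa1a and Hspa2 are not shown to be above background.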

Other observations

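Another 9 probe sets name a member together with another gene and entered no comparison. Of these, 7 reached the filter, with a median KO minus WT difference of -0.05 on the log2 scale, a range from -0.16 to 0.12 and 4 below 0. Hspa8, Hspa1a and Hspa1b are each named by 1 of the 9.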
